A study of Rattus norvegicus with 3 samples.

Results

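The heat shock proteins and endoplasmic reticulum chaperones described here are Hspa1a, Hspa8, Hspb1, Hspb6, Hspd1, Hspa5, Pdia4 and Calr, measured in the thoracic aorta of Sprague Dawley rats. They were represented by every probe set of the array table whose annotation gave exactly 1 gene symbol, that symbol being a member. This rule found 16 of the 8799 probe sets in the table, for 7 of the 8 genes. Hspa8 had no probe set of its own, and its 2 probe sets also carried the symbol Haus8l2. A further 4 probe sets were shared by Hspa1a and Hspa1b, and 1 by Hspb1 and Asb2. These 7 shared probe sets are given apart.

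There were 3 groups with 1 oligonucleotide array each: rats that received water (1 ml/kg), a low dose of allylamine (35 mg/kg) or a high dose of allylamine (70 mg/kg), in each case for 20 days. Allylamine is an unsaturated amine that injures arteries and heart, where amine oxidase converts it to acrolein, a reactive aldehyde that attacks proteins, and to hydrogen peroxide. The labels do not say whether an array carried RNA of a single animal or of several. With 1 array per group no test between groups was possible, no difference below has a replicate check, and no p-value is given.

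Chaperones bind unfolded stretches of other proteins and help them fold, refold or be cleared. In the cytosol, Hspa8 is the constitutive and Hspa1a the stress-inducible member of the 70-kilodalton family, and the small heat shock proteins Hspb1 and Hspb6 hold damaged proteins without using ATP and are abundant in smooth muscle. Hspd1 folds proteins inside mitochondria. In the endoplasmic reticulum, Hspa5 (BiP) is the main chaperone and the sensor partner of the unfolded protein response, Pdia4 forms and rearranges disulfide bonds, and Calr (calreticulin) holds glycoproteins and calcium. Damaged cytosolic protein activates the transcription factor Hsf1, which binds heat shock elements, whereas unfolded protein in the endoplasmic reticulum activates factors that bind the endoplasmic reticulum stress element.

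These elements were looked for in the RefSeq windows of the GRCr8 rat assembly that run from 250 bases before to 50 bases after each gene's start, and all 8 members had such a window. The endoplasmic reticulum stress element was searched as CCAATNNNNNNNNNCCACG and the heat shock element as GAANNTTCNNGAA, each on both strands. The stress element was found in 2 of 8 members, Hspa5 and Calr, and in 0.0657% of all 33469 windows. The heat shock element was found in 2 of 8 members, Hspd1 and Hspa8, and in 0.798% of all windows. These 4 windows are shown because they hold the elements, which are in capitals.
Hspa5 promoter, chr3:38452766-38453065, forward strand: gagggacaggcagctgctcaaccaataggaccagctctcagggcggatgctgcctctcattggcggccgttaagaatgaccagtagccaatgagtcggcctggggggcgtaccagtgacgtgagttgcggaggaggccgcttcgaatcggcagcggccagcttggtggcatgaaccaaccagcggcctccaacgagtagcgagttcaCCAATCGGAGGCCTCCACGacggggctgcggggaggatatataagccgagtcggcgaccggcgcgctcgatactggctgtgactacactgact
Calr promoter, chr19:40213117-40213416, forward strand: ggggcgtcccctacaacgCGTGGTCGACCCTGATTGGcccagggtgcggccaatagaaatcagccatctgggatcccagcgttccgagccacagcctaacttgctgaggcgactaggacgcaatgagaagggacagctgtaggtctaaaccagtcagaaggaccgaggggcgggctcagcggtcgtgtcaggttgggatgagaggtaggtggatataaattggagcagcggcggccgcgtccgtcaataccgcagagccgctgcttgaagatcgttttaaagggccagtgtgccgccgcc
Hspd1 promoter, chr9:64083988-64084287, reverse strand: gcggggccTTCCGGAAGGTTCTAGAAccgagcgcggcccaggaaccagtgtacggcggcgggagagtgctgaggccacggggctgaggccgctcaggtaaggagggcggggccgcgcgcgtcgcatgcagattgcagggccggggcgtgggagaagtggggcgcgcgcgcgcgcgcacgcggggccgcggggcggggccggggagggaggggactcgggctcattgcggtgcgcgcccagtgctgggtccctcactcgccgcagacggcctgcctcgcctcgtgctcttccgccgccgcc
Hspa8 promoter, chr8:50080264-50080563, forward strand: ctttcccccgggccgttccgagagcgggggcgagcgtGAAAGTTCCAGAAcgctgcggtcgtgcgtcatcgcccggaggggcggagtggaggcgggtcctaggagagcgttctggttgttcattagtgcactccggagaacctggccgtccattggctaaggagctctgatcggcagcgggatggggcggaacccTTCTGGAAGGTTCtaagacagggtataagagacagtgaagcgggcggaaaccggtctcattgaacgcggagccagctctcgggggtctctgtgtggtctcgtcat

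In Hspa5 the element ran along the gene's own strand, from 43 to 25 bases before the start. In Calr it lay on the opposite strand, from 232 to 214 bases before the start. The capitals of Hspd1 are 2 overlapping heat shock elements, 1 on each strand, and Hspa8 had 2 separate ones. The same letters as those of Hspd1 stood in the window of Hspe1, its mitochondrial partner chaperonin, which is transcribed the other way from the same stretch of chromosome 9. A match is a description of these letters and not a shown binding site, and the windows of Hspa1a, Hspb1, Hspb6 and Pdia4 held neither run of letters. Only exact matches within these windows were looked for, so the absence of a match does not show that a gene lacks such an element.

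Among the other genes of the endoplasmic reticulum chaperone list, Canx, Creld2, Dnajc3, Ero1b and Hsp90b1 also held the stress element, 5 of 35 with a window. The sites of Hspa5 and Calr are set beside those of Canx, the membrane-bound relative of Calr, and Hsp90b1, the endoplasmic reticulum form of the 90-kilodalton chaperone. All are read in the direction of the motif, with its fixed letters in capitals and the spacer in lower case.
Hspa5, chr3:38452973-38452991: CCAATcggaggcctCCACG
Calr, chr19:40213135-40213153: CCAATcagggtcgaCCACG
Canx, chr10:35158069-35158087: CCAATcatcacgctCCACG
Hsp90b1, chr7:23012451-23012469: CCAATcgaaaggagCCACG
Hsp90b1, chr7:23012347-23012365: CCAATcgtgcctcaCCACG

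Some facts of the arrays bear on every value. Intensities were scaled to a common median, and the 40th percentile of the pooled scaled intensities, 188, served as a floor, below which a probe set was not used for a difference. Across probe sets, log2 values correlated with r = 0.70 between 35 mg/kg and water, 0.48 between 70 mg/kg and water and 0.59 between the doses. The labelled bacterial and phage control transcripts, measured by 9 probe sets, exceeded their water levels by a median factor of 28.8 at the high dose and 3.81 at the low dose. The span from the 5th to the 95th percentile was 6.58 on the log2 scale with water, 6.16 at 35 mg/kg and 5.22 at 70 mg/kg. Of 6 smooth muscle markers on the array, 6 lay above the floor with water and 5 on each treated array, desmin (Des) being below it at both doses, while their summed level was 4341 with water, 4811 at 35 mg/kg and 6060 at 70 mg/kg. Calponin (Cnn1), a smooth muscle marker, had 218 with water, 633 at 35 mg/kg and 1580 at 70 mg/kg. The smooth muscle markers did not all run this way. Tagln had 922 with water, 483 at 35 mg/kg and 462 at 70 mg/kg. In the same order Myh11 had 439, 529 and 426, Acta2 had 1613, 1325 and 2603, and Myl9 had 779, 1755 and 841. The summed level of 5 endothelial markers was 2428 with water, 4323 at 35 mg/kg and 4729 at 70 mg/kg. These markers did not share 1 direction. In this order Nos3 had 451, 2591 and 1177, and Kdr had 91.9, 144 and 1791. Kdr was above the floor only at the high dose. Icam2 had 561, 241 and 344, Vwf had 896, 910 and 819, and Pecam1 had 427, 436 and 598. The summed level of 5 fat markers was 9008 with water, 5803 at 35 mg/kg and 3487 at 70 mg/kg. The fall of this sum was that of Lep, which had 8513 with water, 4266 at 35 mg/kg and 1401 at 70 mg/kg. The fat markers Ucp1, Plin1, Fabp4 and Cfd were each higher at 70 mg/kg than with water, Cfd being below the floor on every array. Markers of heart muscle were above the floor on every array, 4 of 4, and their summed level was 2597 with water, 11114 at 35 mg/kg and 9994 at 70 mg/kg. Nppa made up most of this sum on the treated arrays only, having 977 with water, 8872 at 35 mg/kg and 7629 at 70 mg/kg. Liver markers lay above the floor too, 4 of 4 with water, 3 at 35 mg/kg and 2 at 70 mg/kg. A value above the floor therefore does not by itself show that a tissue was present. The part of these differences in the results on chaperones was not tested. In whole tissue, fewer cells of a type and less RNA per cell cannot be told apart.

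At 70 mg/kg, Hspa5, Pdia4, Hspb6 and Hspa1a were each at least 2-fold above the water aorta, and Hspb1 and Calr had medians near 0. A gene's difference is the middle log2 difference over those of its probe sets that lay above the floor on both arrays, and a log2 difference of 1 is a 2-fold change. Of the 6 members measured, 4 passed the 2-fold mark upwards and 0 downwards. Over all 2462 genes measured in this comparison, 19.7% were at least 2-fold higher and 23.2% at least 2-fold lower. The median over the 6 members was 1.31, and over all genes -0.06. At 35 mg/kg against water, 2 of 6 measured members were at least 2-fold higher, Hspd1 and Hspa1a, and 0 lower, where 16.8% of 2606 genes were higher and 16.3% lower. The median over the members was then 0.78, and over all genes 0.04. The doses share the water array, so these medians are not independent of each other.

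**Figure D1:**
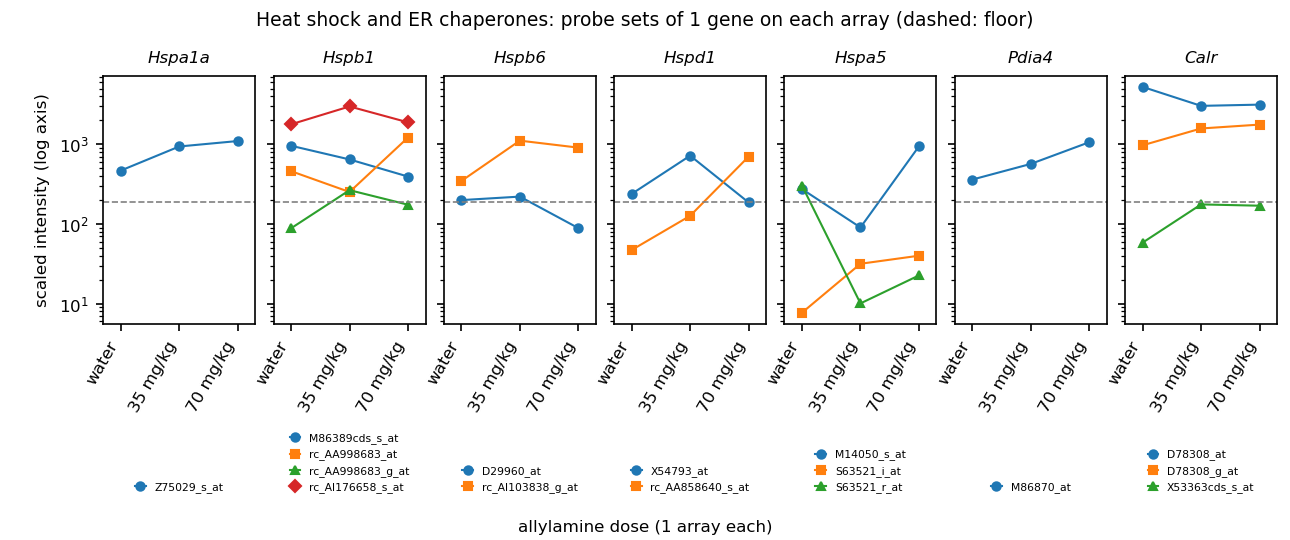
Scaled intensity (log axis) of the 16 probe sets of 7 chaperone genes on the water, 35 mg/kg and 70 mg/kg arrays, each point being 1 array; the dashed line is the floor of 188. Hspa1a and Pdia4 were lowest with water and highest at 70 mg/kg, whereas the probe sets of Hspb1, Hspd1 and Hspa5 ran in different directions.

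Among the cytosolic heat shock proteins, the single Hspa1a probe set, Z75029_s_at, stood at 467 with water, 938 at 35 mg/kg and 1097 at 70 mg/kg. Both treated arrays were above the water array. The log2 difference was 1.23 at 70 mg/kg against water, 1.00 at 35 mg/kg against water and 0.23 between the doses. Ranked within its array, this probe set stood at the 66.4th percentile with water, the 83.0th at 35 mg/kg and the 87.2nd at 70 mg/kg.

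The probe sets that Hspa1a shares with Hspa1b, a neighbouring gene for nearly the same protein, did not follow it. L16764_s_at had 307 with water, 177 at 35 mg/kg and 815 at 70 mg/kg, a log2 difference of 1.41 at 70 mg/kg against water. It was thus high at 70 mg/kg only, and below the floor at 35 mg/kg. The probe set rc_AA818604_s_at ran the other way, with 680 with water, 225 at 35 mg/kg and 207 at 70 mg/kg, so that its log2 difference was -1.72 at the high dose and -1.60 at the low dose. Z27118cds_s_at had 284 with water, 100 at 35 mg/kg and 245 at 70 mg/kg, while AA848563_s_at lay below the floor on every array. With these shared probe sets counted for Hspa1a, an alternative chosen after seeing the data, its log2 difference was 0.51 at 70 mg/kg and -0.30 at 35 mg/kg, so its direction at 35 mg/kg rests on the 1 unshared probe set. Quantile normalization put Hspa1a at 0.98 at the low dose, under the 2-fold mark. Without the probe sets that are less specific by design, whose names end in _s_at, _f_at, _r_at, _i_at or _x_at, it had no value at either dose. Signal of genes this alike can be split between them, and the values are uncertain for either gene.

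Hspa8 could be followed only on its probe sets shared with Haus8l2, and both were below the floor with water and above it in both treated aortas. M11942_s_at had 67.6 with water, 457 at 35 mg/kg and 478 at 70 mg/kg. The probe set rc_AI234604_s_at had 146 with water, 878 at 35 mg/kg and 348 at 70 mg/kg. Because the water value lay below the floor, only bounds can be given: for M11942_s_at the excess over water was at least 2.54-fold at the high dose, and at least 2.43-fold at the low dose. The bounds of rc_AI234604_s_at were at least 1.85-fold at 70 mg/kg and at least 4.66-fold at 35 mg/kg. Among all 7006 probe sets with a single symbol, the share that was below the floor with water and at least 2-fold above it in the treated aorta was 9.28% for 70 mg/kg and 5.28% for 35 mg/kg.

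**Figure D2:**
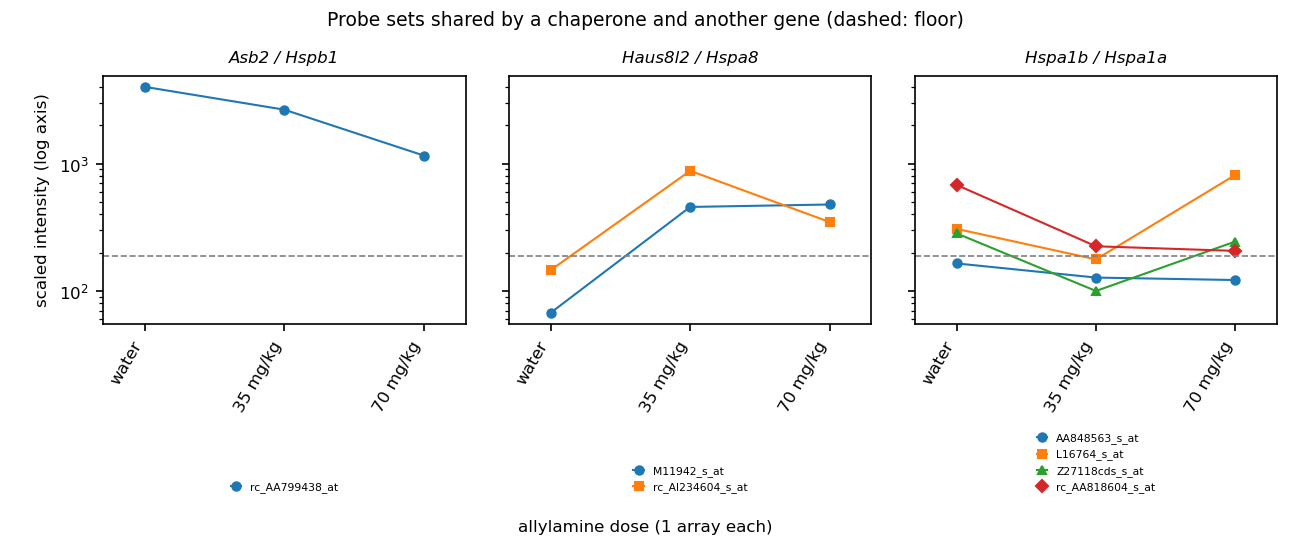
Scaled intensity (log axis) of the 7 probe sets that carry a chaperone symbol and another symbol, on the water, 35 mg/kg and 70 mg/kg arrays; each point is 1 array and the dashed line is the floor of 188. Both Hspa8 probe sets were below the floor with water only, and the 4 shared by Hspa1a and Hspa1b did not run alike.

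The small heat shock protein Hspb1 had 4 probe sets, which disagreed. M86389cds_s_at had 958 with water, 645 at 35 mg/kg and 393 at 70 mg/kg, whereas rc_AA998683_at had 460 with water, 252 at 35 mg/kg and 1215 at 70 mg/kg. The first was lowest and the second highest at 70 mg/kg, with log2 differences from water of -1.28 and 1.40. The third, rc_AI176658_s_at, had 1779 with water, 2980 at 35 mg/kg and 1882 at 70 mg/kg, a log2 difference of 0.08 at 70 mg/kg and 0.74 at 35 mg/kg. The last, rc_AA998683_g_at, comes from the same sequence accession as rc_AA998683_at but did not move with it, at 88.2 with water, 265 at 35 mg/kg and 174 at 70 mg/kg.

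The Hspb1 medians were 0.08 at 70 mg/kg against water, -0.57 at 35 mg/kg against water and -0.66 between the doses. The SD between its 3 measured probe sets was 1.34 at 70 mg/kg against water, where the median such SD over 490 genes with several measured probe sets was 0.91. Its sign at 35 mg/kg was not stable, since the brightest probe set gave 0.74 and floors at the 5th and 55th percentile both gave 0.09. The probe set shared with Asb2, a muscle ubiquitin ligase adaptor, had 3996 with water, 2648 at 35 mg/kg and 1156 at 70 mg/kg. With it counted for Hspb1, the median at 70 mg/kg was -0.60. Without the less specific probe sets, only rc_AA998683_at was measured at 70 mg/kg, and Hspb1 was at 1.40 against water and 2.27 between the doses.

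Hspb6, a small heat shock protein tied to smooth muscle relaxation, rested on the probe set rc_AI103838_g_at, which had 346 with water, 1110 at 35 mg/kg and 907 at 70 mg/kg. Both treated arrays were above water, by log2 differences of 1.39 at 70 mg/kg and 1.68 at 35 mg/kg. The other probe set, D29960_at, lay close to the floor with water (199) and at 35 mg/kg (220) and below it at 70 mg/kg (88.7). Over both probe sets the difference at 35 mg/kg was 0.91, under the 2-fold mark. Lowering the floor to the 5th percentile admits D29960_at, and then the difference at 70 mg/kg was 0.11. The summed levels of heart and smooth muscle markers were also higher on both treated arrays, although the heart marker Tnnt2 had 282 at 35 mg/kg against 345 with water. Of the smooth muscle markers, Tagln and Des were lower than with water on both treated arrays, and Acta2 was lower at 35 mg/kg. The part of these markers in the difference was not tested.

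The mitochondrial chaperonin Hspd1 was highest at a different dose on each of its probe sets. X54793_at had 238 with water, 719 at 35 mg/kg and 186 at 70 mg/kg, just below the floor. Its log2 difference at 35 mg/kg against water was 1.59. The probe set rc_AA858640_s_at had 47.1 with water, 127 at 35 mg/kg and 701 at 70 mg/kg, so that the high dose exceeded water at least 3.72-fold, and X54793_at was at least 3.82-fold lower at 70 than at 35 mg/kg. No difference at 70 mg/kg could be formed for the gene at the 40th percentile floor. Other settings formed one against water that turned in sign, at -0.21 with the values as deposited, -0.36 with the floor at the 25th percentile and 1.77 at the 5th, and between the doses it was -1.82 with the values as deposited and 0.26 at both lower floors. The value at 35 mg/kg was lost with the floor at the 55th percentile. Hspe1, whose window holds the same heat shock elements, had 99.3 with water, 76.7 at 35 mg/kg and 337 at 70 mg/kg on its brighter probe set, above the floor at 70 mg/kg only.

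In the endoplasmic reticulum, Hspa5 was followed by M14050_s_at, with 274 with water, 90.4 at 35 mg/kg and 941 at 70 mg/kg. It was highest at 70 mg/kg and lowest, below the floor, at 35 mg/kg. The log2 difference at 70 mg/kg against water was 1.78, the largest among the members in that comparison, and at 70 mg/kg the signal was at least 4.995-fold above that at 35 mg/kg. On its array this probe set stood at the 83.7th percentile at 70 mg/kg and at the 50.8th with water. The other probe sets came from a different accession. S63521_i_at was dim on every array and had 7.7 with water, 31.7 at 35 mg/kg and 39.96 at 70 mg/kg, whereas S63521_r_at had 303 with water, 10.1 at 35 mg/kg and 22.6 at 70 mg/kg, so that it was above the floor with water only and at least 1.61-fold lower at 70 mg/kg, against the direction of M14050_s_at. The higher value of Hspa5 therefore rests on 1 probe set, and it has no value above a floor at the 55th percentile or without the less specific probe sets.

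Pdia4, the disulfide isomerase, had a single probe set, M86870_at, with 360 with water, 567 at 35 mg/kg and 1061 at 70 mg/kg. It was lowest with water and highest at 70 mg/kg. Its log2 differences were 1.56 at 70 mg/kg against water, 0.65 at 35 mg/kg against water and 0.90 between the doses. The difference between the doses was 1.04 both with the values as deposited and with a common trimmed mean, past the 2-fold mark. At 70 mg/kg against water it was 1.71 with the values as deposited and with a common trimmed mean, and 1.63 with quantile normalization. The alternatives other than scaling could not move it, because its 1 probe set is not of the less specific kind and lay above every floor.

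Calr had 2 bright probe sets from the same accession that moved in opposite directions at both doses. D78308_at had 5244 with water, 3031 at 35 mg/kg and 3141 at 70 mg/kg. D78308_g_at had 970 with water, 1577 at 35 mg/kg and 1764 at 70 mg/kg. The log2 differences at 70 mg/kg against water were thus -0.74 and 0.86, and at 35 mg/kg against water -0.79 and 0.70. Between the doses they were alike, at 0.05 and 0.16. The third, X53363cds_s_at, lay below the floor on every array, at 58.3 with water, 176 at 35 mg/kg and 169 at 70 mg/kg. The Calr medians of 0.06 at 70 mg/kg and -0.05 at 35 mg/kg average 2 opposed readings, and the brightest probe set alone gave -0.74 and -0.79.

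**Figure D3:**
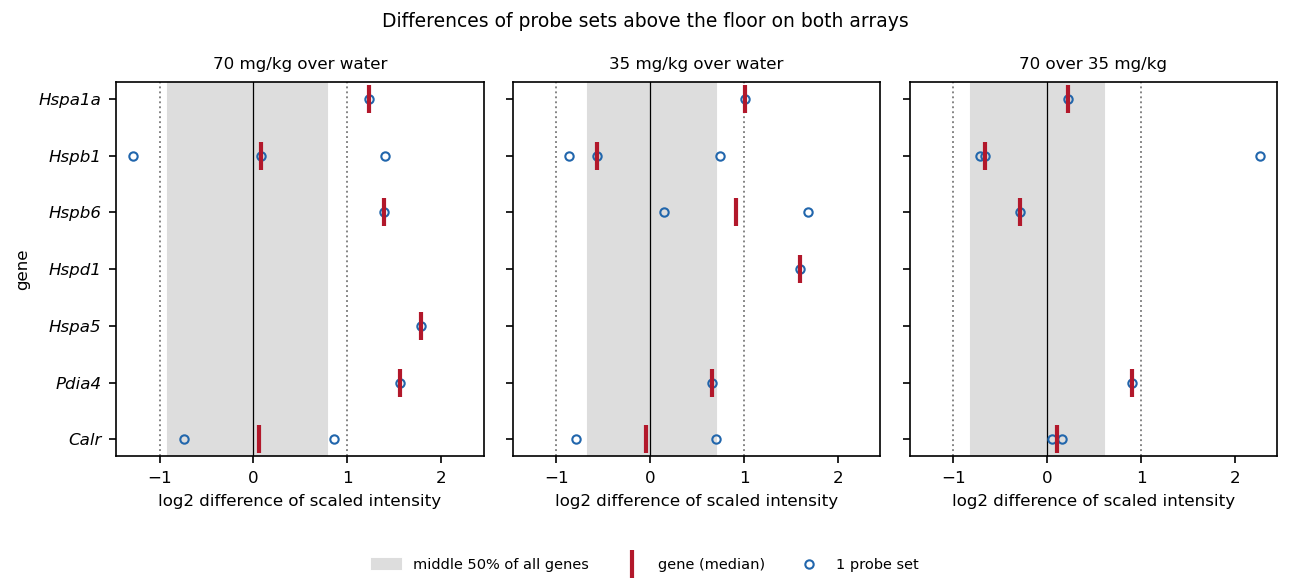
Log2 difference of scaled intensity for each chaperone gene in the 70 mg/kg over water, 35 mg/kg over water and 70 over 35 mg/kg comparisons; circles are probe sets above the floor on both arrays, red bars their median, the grey band the middle 50% of all genes and dotted lines 2-fold. At 70 mg/kg against water Hspa5, Pdia4, Hspb6 and Hspa1a lie beyond the upper dotted line, each on 1 probe set, and the probe sets of Hspb1 and Calr lie on both sides of 0.

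All 4 genes called higher at 70 mg/kg were called on 1 measured probe set, and both measured genes with several, Hspb1 and Calr, had probe sets of opposite sign. By probe set, 5 of 9 measured exceeded water at least 2-fold at 70 mg/kg and 1 was at least 2-fold lower, where 20.9% and 24.7% of 3062 measured probe sets were. At 35 mg/kg against water, 3 of 10 were at least 2-fold higher and 0 lower, where 18.5% and 16.8% of 3292 were. Between the doses, 0 of 5 measured members were at least 2-fold higher or lower at 70 mg/kg, where 14.4% and 20.9% of 2459 genes were. Values there ran from -0.66 for Hspb1 to 0.90 for Pdia4. Over 3 arrays, the genes whose pair of differences from water lay nearest to the median pair of the 5 members measured on all of them were Ptpre, Cdc42, Pygm, Slc15a1 and Krt10, at distances of 0.0081 to 0.058 among 2117 genes.

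Other folding genes were counted in the same way. Of 164 genes in 4 lists of chaperones, folding enzymes and stress regulators, 67 were on the array and 34 were measured at 70 mg/kg against water. Of these, 4 were at least 2-fold higher and 10 at least 2-fold lower, 11.8% and 29.4%, beside 19.7% and 23.2% of all genes. Their median was 0.02, and it was -0.04 with the values as deposited. At 35 mg/kg against water, 9 of 35 were at least 2-fold higher and 2 lower, 25.7% and 5.71%, beside 16.8% and 16.3% of all genes, and their median was 0.16. Genes with only a bound there numbered 5 at least 2-fold higher and 3 lower, where 4.46% and 5.57% of all 4736 genes were. Those lower at 35 mg/kg were Pdia2, Cct3 and Dnaja1, by at least 4.39-fold, 3.63-fold and 2.08-fold. Genes that had only a bound at 70 mg/kg against water numbered 8 at least 2-fold higher and 2 at least 2-fold lower, where 8.02% and 8.11% of all 4736 genes were. The lower ones were Hspa1l, a relative of Hspa1a, with 692 with water, 969 at 35 mg/kg and 70.9 at 70 mg/kg, a bound of at least 3.67-fold lower, and Hspa13, of the same family, with 385 with water, 409 at 35 mg/kg and 129 at 70 mg/kg, a bound of at least 2.05-fold lower. Scaling moved the count of lower genes at 70 mg/kg, which was 6 with the values as deposited.

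Cytosolic chaperones and their helpers had 1 gene of 14 at least 2-fold higher and 3 lower at 70 mg/kg, beside 19.7% and 23.2% of all genes. The list median was -0.23. The gene that was higher was Bag6, a chaperone of membrane proteins, at 2.02, and the lower ones were the chaperonin subunits Cct3 (-1.31) and Cct6a (-1.13) and the vesicle co-chaperone Dnajc5 (-1.01). Dnajc5 was at 1.14 with a floor at the 5th percentile. Under the 3 other scalings Cct6a lay between -0.98 and -0.71 and Dnajc5 between -0.87 and -0.83, within 2-fold. Of these scalings, the values as deposited and the common trimmed mean were nearly the same. The constitutive chaperone Hsp90ab1 was at 0.85 at 70 mg/kg and -0.69 at 35 mg/kg, its probe sets spanning -0.81 to 0.91 at 70 mg/kg. The Hspa8 cofactors Dnajb1 (-0.05), Dnaja1 (-0.60) and St13 (-0.42) and the immunophilin Fkbp4 (0.45) were all within 2-fold. Hspa2 and Stip1 lay below the floor on every array, as did the mitochondrial chaperone Hspa9 of the next list. Hspa4 had 227 with water and Hsph1 300 at 35 mg/kg on their brightest probe sets, and both were otherwise below the floor.

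Small and mitochondrial chaperones had 4 genes measured at 70 mg/kg. Of these, 2 were at least 2-fold higher and 0 lower, beside 19.7% and 23.2% of all genes. The lens crystallin Cryaa was at 2.18 and the mitochondrial cyclophilin Ppif at 1.83. Cryaa rested on 1 probe set and had no value without the less specific ones. Cryab, the muscle relative of Hspb1, was at 0.45 at 70 mg/kg and -1.19 at 35 mg/kg. Hspb2, whose gene neighbours Cryab, had a median of 0.44 at 70 mg/kg on probe sets that ran from -0.74 to 1.62. Over the 4 genes the median was 1.14 at 70 mg/kg and -0.15 at 35 mg/kg.

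Endoplasmic reticulum chaperones and folding enzymes had 1 gene of 9 at least 2-fold higher and 3 lower at 70 mg/kg, beside 19.7% and 23.2% of all genes. The list median was -0.63. Ppib, the cyclophilin that helps collagen fold, had 270 with water, 681 at 35 mg/kg and 1230 at 70 mg/kg on its measured probe set, log2 differences of 2.19 at 70 mg/kg and 1.33 at 35 mg/kg. It had no value without the less specific probe sets or with a floor at the 55th percentile. The immunophilin Fkbp2 (-3.29) and the calcium-binding Rcn3 (-1.76) and Rcn1 (-1.49) were lower at 70 mg/kg. Hsp90b1, which holds the stress element as Hspa5 does, was at 0.63 at 70 mg/kg and 0.32 at 35 mg/kg, both of its measured probe sets being higher (0.15 to 1.11 at 70 mg/kg). After quantile normalization Hsp90b1 was at 1.02 at 70 mg/kg. The isomerases Pdia3 (0.21) and P4hb (-0.88) were within 2-fold, P4hb being at -1.14 on its brightest probe set. Another P4hb probe set, M21476_s_at, ran the other way, at 26.0 with water, 496 at 35 mg/kg and 591 at 70 mg/kg. It was below the floor with water and so had no part in the P4hb median. Dnajb9, an Hspa5 cofactor, had 26.5 with water, 8.94 at 35 mg/kg and 616 at 70 mg/kg, so that the high dose exceeded water at least 3.27-fold. Canx could not be measured at 70 mg/kg on any probe set above the floor on both arrays, and it was at 0.33 at 35 mg/kg. That value lies between 2 opposed probe sets, at -0.50 and 1.15. At 70 mg/kg L18889_at had 118 against 230 with water, and rc_AI010725_at 158 against 378. By contrast, rc_AI010725_g_at had 451 at 70 mg/kg against 138 with water. Pdia6 and Serpinh1, the collagen chaperone, lay below the floor on every array.

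Stress regulators had 7 genes measured at 70 mg/kg. Of these, 0 were at least 2-fold higher and 4 lower, beside 19.7% and 23.2% of all genes. The lower ones were Trib3 (-2.19), Tmbim6 (-1.34), Eif2s1 (-1.14) and the heat shock factor Hsf1 (-1.10). Under the 3 other scalings Hsf1 lay between -0.95 and -0.77, and Eif2s1 was at -0.99 both with the values as deposited and with a common trimmed mean, so that neither passed 2-fold there. A further 5 of the 16 regulators on the array were below the floor with water and at least 2-fold above it at 70 mg/kg. They were Atf3, Cebpb, Eif2ak3, Sqstm1 and Vcp, and 8.02% of all 4736 genes had such a bound. Eif2ak3 (PERK), a kinase that senses unfolded protein in the endoplasmic reticulum, had 45.7 with water, 331 at 35 mg/kg and 681 at 70 mg/kg on AF096835_at. Its other probe set, AF096835_g_at, had 91.0 with water, 519 at 35 mg/kg and 220 at 70 mg/kg, so that both were above the floor at both doses only. The stress-induced factor Atf3 had 145 with water, 561 at 35 mg/kg and 589 at 70 mg/kg, so that the high dose exceeded water at least 3.13-fold and the low dose at least 2.98-fold. Ddit3 (CHOP), the death-promoting factor of the unfolded protein response, had 67.2 with water, 224 at 35 mg/kg and 54.6 at 70 mg/kg, above the floor at 35 mg/kg only. With a floor at the 5th percentile the median of this list at 70 mg/kg was 0.46, where it was -1.10 here.

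**Figure D4:**
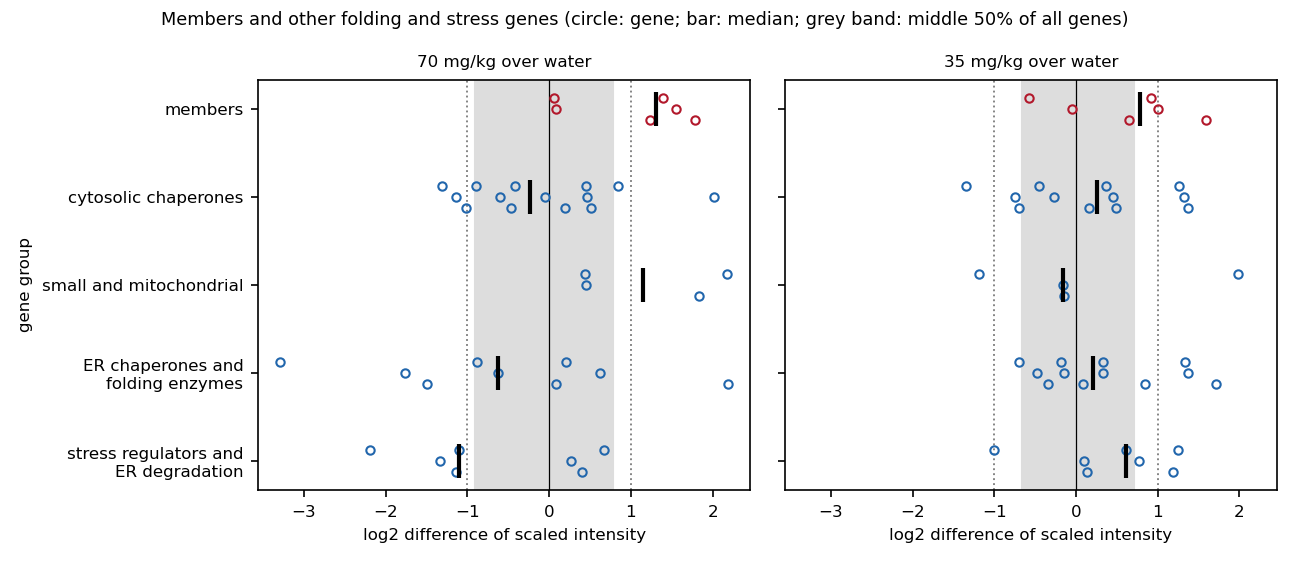
Log2 difference of scaled intensity for the chaperone members (red) and for 4 lists of other folding and stress genes (blue), at 70 mg/kg over water and 35 mg/kg over water; each circle is 1 gene, black bars are medians, the grey band holds the middle 50% of all genes and dotted lines mark 2-fold. The members have a median of 1.31 at the high dose and 0.78 at the low dose. At 70 mg/kg the small and mitochondrial chaperones have a median of 1.14 over 4 genes, and the cytosolic chaperones -0.23. The lists of endoplasmic reticulum and stress regulator genes have medians of -0.63 and -1.10 at 70 mg/kg.

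Genes that hold the same elements were few on the array. The stress element stood in the windows of 21 named genes, of which 4 were measured at 70 mg/kg against water: Hspa5 at 1.78, Hnrnpa3 at 0.79, Hsp90b1 at 0.63 and Calr at 0.06. Of these 4, 1 was at least 2-fold higher and 0 lower, where 19.7% and 23.2% of all 2462 measured genes were. The heat shock element stood in the windows of 218 named genes, of which 10 were measured at 70 mg/kg. Of these 10, 3 were at least 2-fold higher and 3 at least 2-fold lower, beside the same shares of all genes. Their median was -0.47, and that of all genes -0.06. These sets were chosen by sequence after the differences were known, and nothing is read from them about the factors that bind the elements.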

How the data were processed

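The authors deposited linear intensities, 1 value for each probe set on each array. The steps behind them are not stated in the sources used here, and their 2% trimmed means of 499.9 to 500.0 show that the deposited values had already been scaled. Of 8799 probe sets, 59 control probe sets were left out, and 7006 of the 8740 kept had exactly 1 symbol in the platform annotation (6985 matched by gene ID to GRCr8, with 0 symbols changed). Arrays were scaled to a common median (log2 shifts of 0.06 with water, 0.04 at 35 mg/kg and -0.09 at 70 mg/kg), values were compared on the log2 scale above a floor at the 40th percentile, and a gene took the median over its probe sets. A bound is the scaled value over the floor where the other array lay below it. With 1 array per group no error between animals can be given, and disagreement between probe sets of a gene and signal near the floor limit the values further. The calculation was run on simulated data with known changes, which checks the arithmetic only. The simulated arrays differed from each other far less than the real ones, so this cannot say how reliable a 2-fold call is.

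The members and lists were chosen with earlier results of these data known. Genes named were all members, a fixed set of 34 chaperone and stress genes where the array held them, the 3 highest and 3 lowest of each list at 70 mg/kg past 2-fold, and the 5 nearest patterns. Dnajb9, Cebpb, Sqstm1, Hspa1l, Hspa13, Pdia2 and the genes that hold the elements were named after their values were seen. Alternatives were other scalings, floors at the 5th, 25th or 55th percentile of intensity, use of only the brightest probe set, and leaving out less specific probe sets. Python 3.11.15, numpy and pandas were used.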

Additional observations from a re-analysis of the deposited data

Results flagged for a closer look

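Probe sets shared by a chaperone and another gene stood outside the rule that chose the members, and 3 of the 7 carried a signal above the floor and at least 2-fold above water in a treated aorta. The Hspa1a and Hspa1b probe set L16764_s_at differed from water by 1.41 on the log2 scale at 70 mg/kg. The Hspa8 and Haus8l2 probe set M11942_s_at exceeded water at least 2.54-fold at the high dose and at least 2.43-fold at the low dose. The probe set rc_AI234604_s_at, with the same symbols, exceeded water at least 4.66-fold at the low dose. A bound of at least 2-fold above water was found for 1 of the 7 at 70 mg/kg and 2 at 35 mg/kg. Among 7006 probe sets with a single symbol, 9.28% and 5.28% had one. Shared probe sets also ran lower: of the 4 measured at 70 mg/kg against water, 1 was at least 2-fold higher and 2 at least 2-fold lower, rc_AA818604_s_at at -1.72 and the Hspb1 and Asb2 probe set rc_AA799438_at at -1.79, where 20.9% and 24.7% of measured probe sets with a single symbol were. The value of rc_AA818604_s_at at the low dose was -1.60. With 1 array per group these differences were not tested.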

How the results depend on the processing

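No paired analysis was possible because each group had 1 array. At 70 mg/kg against water the median over the members ran from 0.95 to 1.40 over 9 alternatives, and 3 or 4 members were at least 2-fold higher in each. Of the 9, the values as deposited and the common trimmed mean are nearly the same scaling. The genes behind the count of higher members were not always the same. Without less specific probe sets Hspa5 and Hspa1a had no value, and Hspb1 was at 1.40. With a floor at the 5th percentile Hspb6 was at 0.11 and Hspd1 at 1.77. Counting shared probe sets put Hspa1a at 0.51. At 35 mg/kg against water only 1 member was at least 2-fold higher after quantile normalization, without less specific probe sets, and with shared probe sets counted for the member (an alternative chosen after seeing the data), and 1 was at least 2-fold lower with a floor at the 5th percentile. With shared probe sets counted, Hspa1a was at -0.30 at 35 mg/kg and the median over the members between the doses was -0.12. Between the doses 1 member was at least 2-fold higher with the values as deposited, with a common trimmed mean, with a floor at the 5th percentile and without less specific probe sets, and 1 was lower with the values as deposited and with a common trimmed mean.

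For the lists of other folding genes at 70 mg/kg against water, the median was -0.037 with the values as deposited, -0.030 with a common trimmed mean, -0.44 with the brightest probe set and -0.44 without less specific probe sets. Higher genes numbered 15 with a floor at the 5th percentile, 9 at the 25th and 2 without less specific probe sets, and lower genes 16 with a floor at the 5th percentile, against 6 with a floor at the 55th, the values as deposited or a common trimmed mean. At 35 mg/kg a floor at the 5th percentile gave 15 higher and 9 lower, the brightest probe set 5 lower and leaving out less specific probe sets 1 lower. Between the doses a floor at the 5th percentile gave 14 higher and 14 lower and one at the 25th gave 7 higher and 11 lower, and the median without less specific probe sets was -0.16. Dnajc5 at 70 mg/kg was at 1.14 and the stress regulator median at 0.46 with a floor at the 5th percentile. Lower floors admit more dim probe sets (65 list genes measured against 34 at 70 mg/kg); for the other settings the cause was not tested. Of all 2-fold differences at 70 mg/kg against water, those higher were 46.0%, and 51.1% with the values as deposited; between the doses they were 40.9% and 48.5%. Signal near the floor limits Hspd1, Hspa5 and the dimmer Hspb6 probe set.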
